A study of Mus musculus with 8 samples.

Results

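Of the 87144 regions that peaks of the 8 ATAC-seq libraries formed when merged by at least 1 bp of overlap, 3324 were called at 0 h and 18 h post-RA and at neither 48 h nor 120 h. They were chosen by these calls, where a region was called at a timepoint if both of its libraries had a peak there. They were 3.81% of all merged regions and 5.42% of the 61310 regions called at 1 timepoint or more. Another 30507 regions were called at 0 h only, 3530 at 0, 18 and 48 h, 1188 at 0, 18 and 120 h, and 15536 at all 4 timepoints.

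ATAC-seq uses a transposase that inserts sequencing adapters where DNA is not covered by nucleosomes, so that reads gather at promoters, enhancers and other sites bound by regulatory proteins. Promoters of broadly active genes tend to be open in many cell states, whereas open sites in introns and between genes differ more from one cell state to another. In the testis, retinoic acid (RA) turns undifferentiated (Aundiff) spermatogonia into differentiating ones, and it acts through RAR/RXR receptor pairs bound to repeated copies of a short DNA site.

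The germ cells came from neonatal mice that carry PIWIL2-eGFP, a transgene in which eGFP is driven by the Piwil2 promoter. Its expression runs from before birth to early spermatids, so the sort by itself selects germ cells and not a single spermatogonial type. The study also synchronized spermatogenesis with WIN 18,446 and RA. It assigns the cells at 0, 18, 48 and 120 h to Aundiff, A1/A2, A3 and B spermatogonia. Every mouse, those at 0 h included, was fed 100 mg/kg WIN 18,446, an inhibitor of RA synthesis, daily for 7 days from 2 dpp. At 0 h the mice had received no RA, and at 18, 48 and 120 h collection followed that long after 200 µg of RA had been injected into mice aged 9 dpp. The 4 groups had 2 libraries each, made from the pooled testes of 1 mouse per library. The labels give the strain background as derived from C57BL/6 x 129s4/SvJae, whereas the study's methods give C57BL/6 x SJL. Age, RA exposure or the time since it, and the time since the last WIN 18,446 dose changed together over the timepoints. Their parts in a difference between timepoints cannot be told apart.

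The libraries differed in how many peaks they held, from 24643 in 120 h replicate 2 and 25941 in 48 h replicate 1 to 69089 and 72215 at 0 h, and all had been reduced by the authors to an equal number of tags. The start regions of all 6 germ cell genes examined, Piwil2, Ddx4 and Dazl among them, had a peak in all 8 libraries. Of 27 markers of testis somatic cells, 14 had a start peak in both 0 h libraries, against 5 in those of 18 h, 6 in those of 48 h and 4 in those of 120 h, and 12 had none in any library. The summed values at the somatic starts were 1555 and 1862 before RA and 244 to 526 in the 6 later libraries, and those at the germ cell starts 2796 and 3709 before RA and 1119 to 2546 later. The part of somatic cells in the results below was not tested.

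The name of this set of regions holds only under its rule, since most of them kept a peak in a library after 18 h. Of the 3324 regions, 600 (18.1%, Wilson 95% interval 16.8 to 19.4) had no peak in any of the 4 libraries at 48 and 120 h, 1313 (39.5%) had a peak in 1 of these libraries and 1411 (42.4%) in 2. The interval covers counting error only. The later peaks lay mainly in the same libraries: 48 h replicate 2 had a peak in 2019 of the regions (60.7%) and 120 h replicate 1 in 1739 (52.3%), against 304 (9.15%) in 48 h replicate 1 and 73 (2.2%) in 120 h replicate 2. Both 48 h replicate 2 and 120 h replicate 1 had a peak in 1183 regions (35.6%).

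The libraries with the fewest peaks therefore set much of the membership. Without 48 h replicate 1, 1305 regions met the rule, all of them among the 3324, and without 120 h replicate 2, 1585 did. With both of these libraries left out, 749 regions met it, 22.5% of the 3324. Leaving out 48 h replicate 2 or 120 h replicate 1 kept 3020 and 3251. At the other end, 8207 regions met the rule without 18 h replicate 1 and 4868 without 18 h replicate 2.

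**Figure D1:**
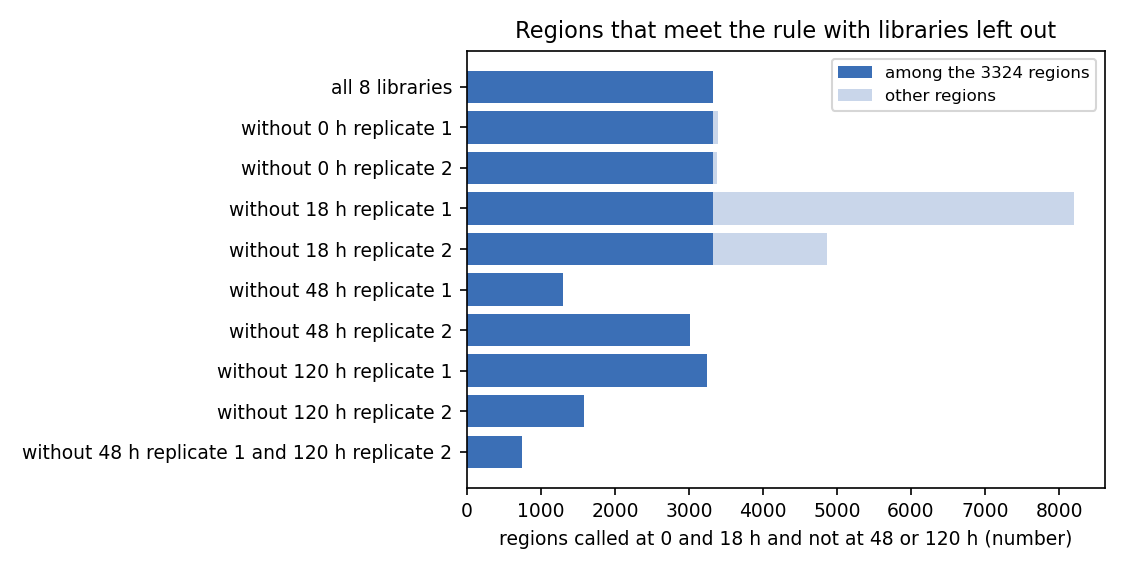
Number of regions called at 0 and 18 h and not at 48 or 120 h (horizontal axis) with all 8 libraries and with the named libraries left out. The dark bar counts regions among the 3324 and the pale bar other regions, and the number falls to 749 without 48 h replicate 1 and 120 h replicate 2.

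The lowest summit value, the tag coverage at the top of a peak, was 24 or 25 in every library. Members with a peak in 1 of the 48 h libraries had a median value of 47 in that peak, and those with a peak in 1 of the 120 h libraries a median of 50. Just outside the rule, regions called at 0, 18 and 48 h had a median of 46 in the lower and 61 in the higher of their 48 h libraries, and regions called at 0, 18 and 120 h had 49 and 73 at 120 h. On the side of 18 h, the lower 18 h value had a median of 44 in the members, and regions called at 0 h only that had a peak in 1 of the 18 h libraries had a median of 42 there. These values took part in the choice and are given without a test. Where a library has no peak its height is not known, since peaks were called by a p-value.

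The regions that reached the highest values at 18 h and then had no peak in any later library are shown by their sequence, since their membership does not rest on a single missing peak at 48 or 120 h. Of the 10 highest, 8 had no annotated exon within 75 bp of the summit. Their 151 bp are given from the plus strand of GRCm38 (mm10), as read from the RefSeq sequence. Capitals mark a match, on either strand, to any of the 24 short motifs searched.

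chr3:87974390-87974540, intron of Nes: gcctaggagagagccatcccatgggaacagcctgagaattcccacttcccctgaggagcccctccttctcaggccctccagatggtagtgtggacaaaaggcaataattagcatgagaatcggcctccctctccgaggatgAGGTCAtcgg
chr6:29450006-29450156, intron of Flnc: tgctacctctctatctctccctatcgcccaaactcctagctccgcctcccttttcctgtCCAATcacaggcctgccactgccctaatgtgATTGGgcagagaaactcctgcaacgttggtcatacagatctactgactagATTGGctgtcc
chr4:148589718-148589868, between transcripts, assigned to Srm and Exosc10: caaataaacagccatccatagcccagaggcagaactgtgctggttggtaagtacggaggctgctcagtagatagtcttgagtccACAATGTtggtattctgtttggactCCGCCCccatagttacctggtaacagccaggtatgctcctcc
chr5:110808406-110808556, intron of Ulk1: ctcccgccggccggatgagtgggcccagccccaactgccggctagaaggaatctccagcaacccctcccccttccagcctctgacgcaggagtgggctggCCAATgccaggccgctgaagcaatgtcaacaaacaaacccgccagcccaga
chr10:80450742-80450892, no gene within 10 kb: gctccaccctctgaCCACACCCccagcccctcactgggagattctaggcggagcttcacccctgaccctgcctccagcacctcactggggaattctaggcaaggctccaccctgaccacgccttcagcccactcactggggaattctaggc
chr7:36455318-36455468, no gene within 10 kb: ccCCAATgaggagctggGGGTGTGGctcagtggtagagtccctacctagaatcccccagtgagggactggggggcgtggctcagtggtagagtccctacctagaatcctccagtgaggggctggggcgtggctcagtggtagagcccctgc
chr13:57732374-57732524, intron of Spock1: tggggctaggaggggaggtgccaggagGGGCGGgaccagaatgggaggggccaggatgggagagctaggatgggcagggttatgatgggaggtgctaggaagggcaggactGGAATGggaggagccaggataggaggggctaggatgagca
chr7:29004246-29004396, intron assigned to Map4k1 and Ryr1: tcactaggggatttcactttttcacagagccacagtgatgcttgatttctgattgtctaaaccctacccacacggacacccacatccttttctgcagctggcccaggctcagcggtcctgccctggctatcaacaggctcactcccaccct

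The capitals are a KLF motif (GGGTGTGG or its complement) in the regions on chromosome 10 and on chromosome 7 with no gene, a CCAAT box at Flnc, Ulk1 and the same chromosome 7 region, a GC box (GGGCGG) at Srm and Spock1, a DMRT core (ACANTGT) at Srm, a TEAD site (GGAATG) at Spock1 and a nuclear receptor core site (AGGTCA) at Nes. The Map4k1 region held none of the motifs within these 151 bp. The regions on chromosome 10 and on chromosome 7 with no gene consist of a short unit that recurs along the window with small changes. In the chromosome 7 region 94.7% of the 301 bp around the summit were marked as repeat in the RefSeq sequence, and in the chromosome 10 region 35.5%.

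Nes encodes the intermediate filament protein nestin. Its region had values of 286 and 456 before RA, then 108 and 143 at 18 h. The region at the start of Rhbdl1, which was also assigned to the ubiquitin ligase gene Stub1 and 4 other genes, had 224 and 355 before RA, then 108 and 141 at 18 h. Both regions were lower in both 18 h libraries than in either 0 h library. Flnc encodes the actin cross-linker filamin C, and its region had 201 and 180 before RA, then 106 and 81 at 18 h. In the region beside Srm, the gene of spermidine synthase, the values were 148 and 313 before RA, then 90 and 118 at 18 h. Ulk1, a kinase gene of autophagy, had 229 and 263 and then 83 and 114. The region with the smallest change among the 10 lay in Spock1, a proteoglycan gene, with 111 and 153 before RA, then 78 and 90 at 18 h, a log2 change of -0.64 ± 0.32 (SE; limma, adjusted p = 0.0484). The largest change was that of the chromosome 7 region with no gene, with 361 and 214 before RA, then 82 and 87 at 18 h (log2 change -1.72 ± 0.32, limma, adjusted p = 7.86e-07). In all 10 regions both 18 h values lay below both 0 h values. The same held for 93.9% of the members and 96.3% of the 23578 regions compared by limma, so it does not set the 10 apart.

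Over all 3324 regions, the median summit value was 104 and 117 in the 0 h libraries and 46 and 50 in the 18 h libraries. The middle 50% ran from 78 to 138 and from 85 to 156 before RA, and from 39 to 56 and from 41 to 62 at 18 h. Where a later library had a peak, its median was 41 and 48 in the 48 h libraries and 51 and 39 in those of 120 h. The members were thus higher at 0 h than the regions called at 0 h only, with medians of 60 and 62, and lower than the regions called at all 4 timepoints, with 224 and 270. At 18 h the regions called at all 4 timepoints had 91 and 116. These levels belong to what chose the regions and carry no test.

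**Figure D2:**
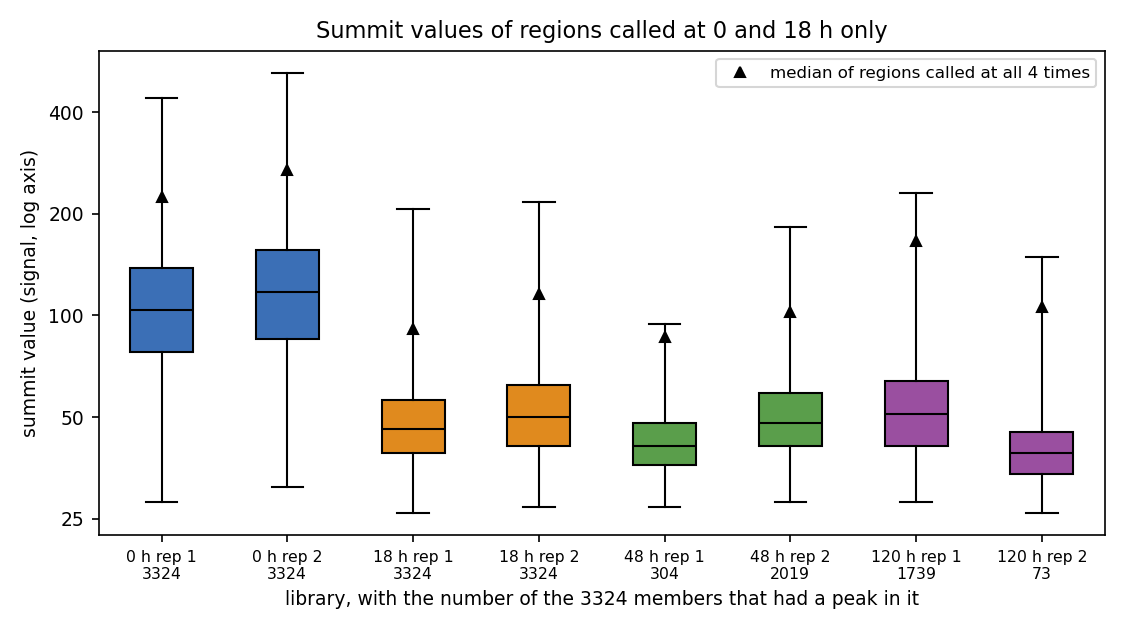
Summit values (log axis, signal units) of the regions called at 0 and 18 h only in each library, over the regions that had a peak there, whose number stands under each library. Boxes give the quartiles and the median, whiskers the lowest and highest value, and triangles the median of regions called at all 4 timepoints, which lies above the members' median in every library.

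Few members were high at 18 h. Among the 23578 regions that had peaks in every library of 0 and 18 h, members made up 45.0% of the class with the lowest 18 h values (26 to 39), 24.6% of that from 46 to 52, 10.3% of that from 60 to 68 and 0.412% of that from 98 to 125. None of the 2357 regions with values of 179 to 765 was a member, and 99.7% of those were called at all 4 timepoints. The members with no later peak were the lowest, with medians of 86.5 and 95 before RA, then 42 and 45 at 18 h, against 115 and 130, and then 49 and 54, in the members with a peak in 2 later libraries.

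**Figure D3:**
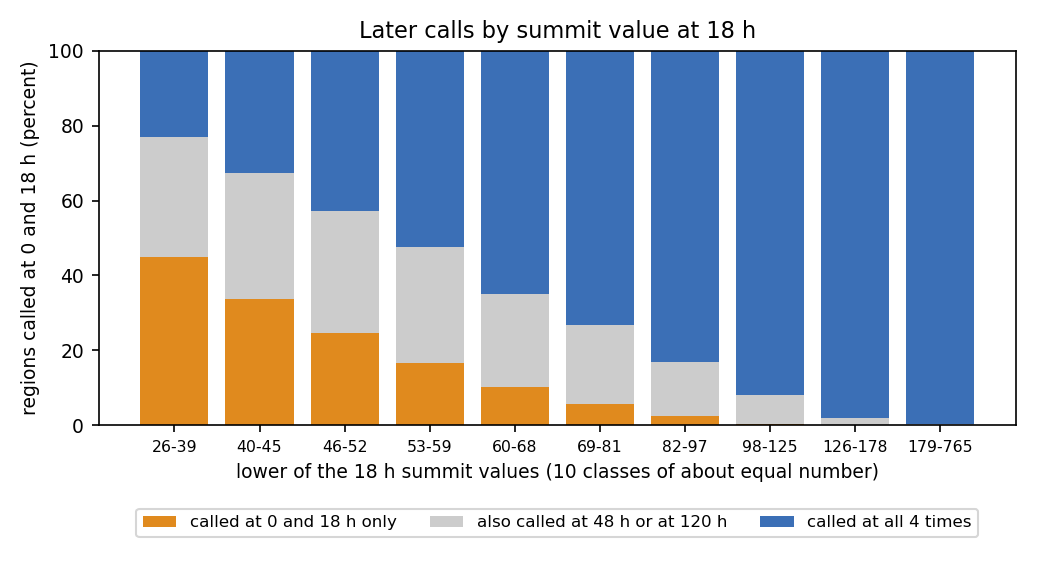
Share (percent) of the regions found in all libraries of 0 and 18 h that were called at 0 and 18 h only, also at 48 h or at 120 h, or at all 4 timepoints, in 10 classes of the lower 18 h summit value. The share called at 0 and 18 h only falls from 45.0% in the lowest class to 0 in the highest.

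The rule set no limit on the change in height from 0 to 18 h, but it required peaks at both times. The change was tested with limma across all 23578 regions with a peak in the 4 libraries, of which the members were 14.1%. A region that fell too low to be called at 18 h is absent from this test, and few members were high at 18 h. The shares below therefore describe the members and are no evidence of a change particular to them. The median log2 change was -1.17 in the members and -1.23 in all regions tested, so that the median member kept 44.5% of its 0 h value at 18 h and the median region 42.8%. The median change of the members was -1.14 between the libraries numbered 1 and -1.2 between those numbered 2, beside -1.26 and -1.19 in all regions, so the members fell less only in the first of these. In 3122 members (93.9%) both 18 h values lay below both 0 h values, beside 96.3% of all regions, and in 7 members (0.211%) both lay above, beside 0.424%. With an adjusted p under 0.05, 2854 members (85.9%) were called lower at 18 h, beside 92.6% of all regions. Without 0 h replicate 2 the shares were equal, at 57.2% of both, and among the 11789 regions above the median height they were 99.5% of 195 members and 97.3% of all regions. No member was called higher, by the adjusted or the unadjusted p, beside 0.246% of all regions. The estimated spread was the same in every region (SE 0.32), so the calls amount to a limit on the log2 change of about -0.63.

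The heights of almost all regions fell together, so the libraries were also centred on their medians, which gives each change relative to the others. After centring, the members' median change was 0.12 and that of all regions 0.06. Of the members 178 (5.35%) were called higher, beside 2.89% of all regions, and 40 (1.2%) were called lower, beside 0.56%. With quantile normalization 7 members were called higher and 13 lower, so that these calls depend on the scaling. Among the 178 regions called higher after centring, 46 had no later peak, 9 (5.06%) lay within 1000 bp of a TSS, and the median of the lower 18 h value was 44, as in all members. In each of the 7 classes of 18 h height with at least 20 members, the members' median change was less negative than that of the other regions, for instance -1.17 against -1.31 at values of 26 to 39 and -1.1 against -1.24 at values of 69 to 81. No test was made of that difference, and its direction over all members turned under some settings: the medians of members and all regions were -1.093 and -1.066 without 18 h replicate 1, -0.056 and -0.005 with quantile normalization and -1.46 and -1.263 above the median height. Members with no later peak had a median change of -1.04, and regions called at 0, 18 and 48 h one of -1.28.

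**Figure D4:**
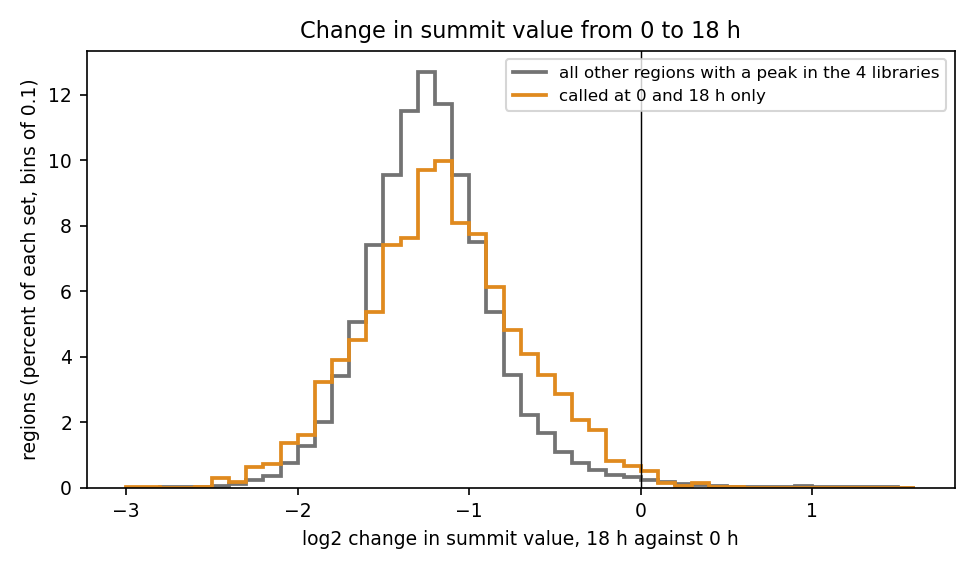
Distribution of the log2 change in summit value from 0 to 18 h (horizontal axis, heights as deposited) in the regions called at 0 and 18 h only and in all other regions with a peak in the 4 libraries, as percent of each set in bins of 0.1. Both distributions lie almost wholly below 0, and that of the members is the wider, on the side of small changes and on that of large falls.

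The members with the largest rise relative to the median of all regions were in or near Ica1, Fam19a5, a gene listed as LOC101056177, Gabbr2, Prdm16 and B3gat1. An intron of Ica1, the gene of an islet cell autoantigen, had values of 43 and 63 before RA, then 79 and 73 at 18 h, with later peaks of 59 (48 h replicate 2) and 48 (120 h replicate 1). It was 1.77 above the median change on the log2 scale, and its own change of 0.55 ± 0.32 did not pass the test (limma, adjusted p = 0.091). The region beside Fam19a5 had 52 and 47 before RA, then 64 and 67 at 18 h. It had later peaks of 57 (48 h replicate 2) and 47 (120 h replicate 1). Both 18 h values lay above both 0 h values in each of the 6 except Prdm16. This held for 0.211% of the members and 0.424% of all regions tested. An intron of Gabbr2, a subunit gene of the GABA-B receptor, had 62 and 54 before RA, then 73 in each 18 h library, with a later peak of 39 in 48 h replicate 1. An intron of Prdm16, a gene of a zinc finger regulator of cell fate, had a value of 37 in each 0 h library, then 37 and 58 at 18 h. Its later peaks were 70 (48 h replicate 2), above all its earlier values, and 50 (120 h replicate 1). In the Ica1 region 62.5% and in the LOC101056177 region all of the 301 bp around the summit were marked as repeat, against at most 14.0% in the other 4. All 6 passed the test only after centring, with adjusted p between 0.000261 and 0.00101 (limma). After centring 5.35% of the members and 2.89% of all regions tested were called higher. The 6 were chosen by this same change, so that these p-values are no separate evidence of a rise. Their 0 h values, from 37 to 63, were also near the lowest summit value of 24 or 25. A region with such values can fall little and still have a peak at 18 h.

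The 6 members with the largest fall were an intron of AI607873 and 5 regions with no gene within 10 kb. The AI607873 region had values of 314 and 283 before RA, then 41 and 38 at 18 h, with later peaks of 39 (48 h replicate 2) and 56 (120 h replicate 1), and its log2 change was -2.92 ± 0.32 (limma, adjusted p = 1.04e-15). A region on chromosome 4 (chr4:47158738-47159304) had 203 and 201 before RA, then 30 and 28 at 18 h. Its later peak of 33 (48 h replicate 2) lay above both 18 h values. A region on chromosome 14 (chr14:23169297-23169780) had 312 and 368 before RA, then 65 and 56 at 18 h, and 66 in both 48 h replicate 2 and 120 h replicate 1. Its later peaks were as high as those at 18 h. All 6 were called lower before and after centring, beside 92.6% and 0.56% of all regions tested. They were chosen by this same change, so that these calls are no separate evidence of a fall. In 4 of the 6, between 71.8% and 91.4% of the 301 bp around the summit were marked as repeat.

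Most members lay away from gene starts. Within 1000 bp of a TSS there were 326 (9.81%), against 9.72% of the regions called at 0 h only, 12.5% of those called at 0, 18 and 48 h, 23.1% of those called at 0, 18 and 120 h and 57.1% of those called at all 4 timepoints. Another 1245 members (37.5%) were inside a gene, 504 (15.2%) within 10 kb of one and 1249 (37.6%) had no gene within 10 kb. By the GENCODE annotation 39.5% of the summits were in an intron, 11.5% in an exon and 49.0% between transcripts. The share with no later peak was 12.9% at gene starts and 19.8% in the regions with no gene. The 18 h medians were 45 and 52.5 at gene starts and 45 and 48 where there was no gene within 10 kb.

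A CpG island was assigned to 233 members (7.01%), 133 of them at gene starts, against 23.3% of all called regions and 58.4% of those called at all 4 timepoints. At gene starts alone the shares were 40.8% of the members and 74.6% of all called regions. The median GC content of the 301 bp around the summit was 51.5% in the members, 52.8% in all called regions and 60.8% in those called at all 4 timepoints, and away from gene starts it was 50.8% in the members and 50.5% in all called regions. On the X chromosome there were 70 members (2.11%), against 1.94% of all called regions. The members were scattered: the median distance to the nearest other member was 159 kb, and 154 members (4.63%) had another within 10 kb.

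Part of the members lay in repeated sequence. At least 50% of the 301 bp were marked as repeat in 302 members (9.09%) and in 74 of the 600 with no later peak (12.3%), against 7.24% of all called regions, 9.86% of those called at 0 h only and 2.45% of those called at all 4 timepoints. Away from gene starts the shares were 9.84% of the members, 12.9% of those with no later peak, 9.28% of all called regions and 10.7% of those called at 0 h only. Words of 12 bases that recur within 75 bp of the summit made up at least 20% of the words in 125 members (3.76%) and in 31 of those with no later peak (5.17%), against 1.96% of all called regions, 1.26% of those called at 0 h only, 3.34% of those called at 0, 18 and 48 h and 2.53% of those called at 0, 18 and 120 h.

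The 24 motifs were searched within 150 bp of the summit on both strands. A KLF motif (GGGTGTGG), a site of Krüppel-like zinc finger factors, was in 205 members (6.17%) and in 54 of the 600 with no later peak (9.0%), against 3.77% of all called regions and 3.78% of all merged regions. In the members it went together with repeats. It was in 19.5% of the members with at least 50% of repeat and in 4.83% of the others, against 7.59% and 3.48% of all called regions. Among the 31 members with no later peak and recurring words, 12 held it.

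The NRF1 motif (GCGCATGC) was in 162 members (4.87%), against 3.46% of all called regions, and away from gene starts in 5.14% against 3.06%. The SOX motif (CCATTGTT) was in 66 members (1.99% against 1.24%) and in 1.81% of the regions called at 0, 18 and 48 h, and away from gene starts in 2.07% against 1.5%. The DMRT core (ACANTGT), which is read the same on both strands, was in 708 members (21.3%), in 16.0% of those with no later peak and in 28.4% of the regions called at 0, 18 and 48 h, against 17.4% of all called regions. Away from gene starts it was in 23.2% of the members and 21.6% of all called regions. An AP-1 site (TGANTCA) was in 318 members (9.57% against 7.53%), in 9.55% of the regions called at 0, 18 and 48 h and 8.27% of those called at 0 h only, and away from gene starts in 10.1% against 8.65%. The GC box was in 660 members (19.9%), against 28.5% of all called regions and 53.7% of those called at all 4 timepoints, and away from gene starts in 17.3% against 17.6%. The SF1/NR5A site (TCAAGGTCA), which contains the nuclear receptor core site, was in 9 members (0.271% against 0.527%). A match of letters is a description of the sequence and no site of binding, and no test was made.

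Since the study follows a pulse of RA, direct repeats of the RAR/RXR core were searched with AGGTCA or any of its variants (either GGGTCA, or else AGTTCA, or otherwise GGTTCA) in both places and a spacing of 1, 2 or 5 bases. They were in 15 members (0.451%), against 0.53% of all called regions and 0.569% of all merged regions, so that the share in the members was no higher than in the rest. The 4 members with the highest 18 h values among them are shown with 30 bases on each side of the repeat, plus strand of GRCm38, with the repeat in capitals.

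chr14:22203983-22204059, spacing 5, intron of 1700112E06Rik: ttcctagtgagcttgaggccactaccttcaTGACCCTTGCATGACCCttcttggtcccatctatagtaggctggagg
chr17:29762775-29762847, spacing 1, no gene within 10 kb: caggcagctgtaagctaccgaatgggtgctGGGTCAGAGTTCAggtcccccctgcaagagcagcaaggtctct
chr19:6869577-6869653, spacing 5, no gene within 10 kb: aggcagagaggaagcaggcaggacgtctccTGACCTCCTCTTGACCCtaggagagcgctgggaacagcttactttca
chr2:168048295-168048368, spacing 2, no gene within 10 kb: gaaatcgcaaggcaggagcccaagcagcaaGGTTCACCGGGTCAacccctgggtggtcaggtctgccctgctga

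The repeat lay 14 bases from the summit on chromosome 19 and 42 on chromosome 17, and further out in the other two, at 138 bases on chromosome 2. The chromosome 17 region had values of 143 and 115 before RA, then 69 and 70 at 18 h and no later peak (log2 change -0.88 ± 0.32, limma, adjusted p = 0.00652). The chromosome 19 region had 151 and 211 before RA, then 61 and 58 at 18 h, with a later peak of 66 in 48 h replicate 2. The chromosome 14 region had 82 and 103 before RA, then 62 and 68 at 18 h, with a later peak of 37 in 48 h replicate 2, and the chromosome 2 region 100 and 75, then 59 in each 18 h library, with later peaks of 72 (48 h replicate 2) and 109 (120 h replicate 1). In the chromosome 2 region the value in 120 h replicate 1 was above both 0 h values. The changes of the chromosome 14 and chromosome 2 regions did not pass the test (limma, adjusted p = 0.12 and 0.086).

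The members were assigned to 2333 genes, 11.3% of the 20626 genes with a called region, and 1245 members had no gene. Of these genes, 2093 had 1 member, 201 had 2 and 39 had 3 or more. A region called at all 4 timepoints was assigned to 1479 of them (63.4%), so most of these genes kept other accessible regions throughout. The same share of all genes is not given here, so no trait particular to these genes follows. The genes with the most members were Aff3, Atrnl1 and Fam155a with 5 each, of 29, 30 and 21 called regions, followed by Grip1 and Ldlrad4 with 4 of 28 and 15, which 8 further genes equalled. In Aff3, a gene of a nuclear protein linked to transcription, 4 of the 5 lay in introns, with 18 h values between 34 and 62. The 5 members of Atrnl1 lay in introns with 18 h values between 37 and 61. The highest 0 h values among them, 170 and 174, fell to 37 and 59.

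Among 35 genes known for their expression in undifferentiated spermatogonia, all with a called region, 10 had a member (28.6%), against 11.3% of all genes, and 13 of their 156 called regions were members (8.33%), against 4.85% of all regions with a gene. The 10 were Gfra1, Zbtb16, Foxo1, Upp1, Pax7, Utf1, Egr4, Onecut2, Ptch1 and Zfp462. The study itself picked some of the list, Onecut2, Ptch1, Zfp462 and Zbtb16 among them, so that it is no independent evidence of a direction. Without 48 h replicate 1 and 120 h replicate 2, 4 genes were left (Egr4, Ptch1, Upp1 and Utf1), 11.4% of the list against 2.77% of all genes. None of the 13 regions was at a gene start, 8 were in introns, and none had a peak in 48 h replicate 1 or 120 h replicate 2. No test of the difference between the list and other genes was made.

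The naming rule gave 5 of these regions, that of Gfra1 through the GDNF list. Egr4 encodes an early growth response zinc finger factor, and the region beside it had 249 and 208 before RA, then 61 and 79 at 18 h and no later peak (log2 change -1.71 ± 0.32, limma, adjusted p = 8.42e-07). Zbtb16 encodes PLZF, a regulator of stem cell maintenance, and its intron region had 112 and 104 before RA, then 77 and 64 at 18 h, with later peaks of 54 (48 h replicate 2) and 68 (120 h replicate 1). The 18 h values of Zbtb16 lay below the 0 h values, but its change of -0.62 ± 0.32 did not pass the test (limma, adjusted p = 0.0545). Pax7 marks a subset of Aundiff cells, and its intron region had 120 and 121 before RA, then 57 and 59 at 18 h, with a later peak of 63 in 120 h replicate 1. The region assigned to Utf1, a chromatin factor of pluripotent and Aundiff cells, was also assigned to Kndc1. Its summit lay in an exon, inside Kndc1 and upstream of the start of Utf1. It had 93 and 129 before RA, then 59 and 54 at 18 h, and had no later peak.

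The sequence at the summits of the Egr4 region and of the Gfra1 region with the higher 18 h values is shown, the former as the highest member of this list at 18 h among those with no later peak, the latter as that of a GDNF receptor gene. Capitals mark motif matches as above.

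chr6:85517526-85517676, between transcripts, assigned to Egr4: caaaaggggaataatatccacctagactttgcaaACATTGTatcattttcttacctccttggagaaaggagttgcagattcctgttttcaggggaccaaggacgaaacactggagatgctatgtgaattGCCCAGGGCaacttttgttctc
chr19:58448598-58448748, intron of Gfra1: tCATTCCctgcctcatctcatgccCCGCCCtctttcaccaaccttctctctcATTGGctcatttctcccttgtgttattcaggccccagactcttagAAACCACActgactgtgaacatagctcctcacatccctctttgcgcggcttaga

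The capitals are a DMRT core and a TFAP2 site (GCCNNNGGC) at Egr4, and a TEAD site, a GC box, a CCAAT box and a RUNX site (TGTGGTTT) at Gfra1. Gfra1 encodes the GDNF co-receptor of stem cells. Of its 17 called regions, 10 were called at 0 h only, 2 were members and none was called at all 4 timepoints. The region shown had 119 and 149 before RA, then 42 and 58 at 18 h, with a later peak of 53 in 48 h replicate 2 (log2 change -1.43 ± 0.32, limma, adjusted p = 2.44e-05). The other, which lies outside the naming rule and was chosen after its values were seen, had 207 and 153 before RA, then 35 and 51 at 18 h, with later peaks of 37 (48 h replicate 2) and 40 (120 h replicate 1). Pax7, Upp1, Utf1 and Zfp462 also had no region called at all 4 timepoints, whereas Egr4 had 2 of 3.

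The remaining regions of the list lie beyond the naming rule and were chosen after their values were seen, to complete the 13. Upp1, Ptch1 (2 regions), Onecut2, Foxo1 and Zfp462 (2 regions) had 0 h values between 57 and 271 and 18 h values between 35 and 67. Of all 13, 11 were called lower at 18 h, beside 92.6% of all regions, with log2 changes from -2.07 to -0.22 and a median of -1.43. The smallest change was in an intron of Zfp462 (chr4:54967761-54968145), with 57 and 67 before RA, then 56 and 50 at 18 h. After centring it was the only one of the 13 past the test (limma, adjusted p = 0.0205, higher). Of all regions tested, 2.89% were called higher after centring and 0.56% lower.

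**Figure D5:**
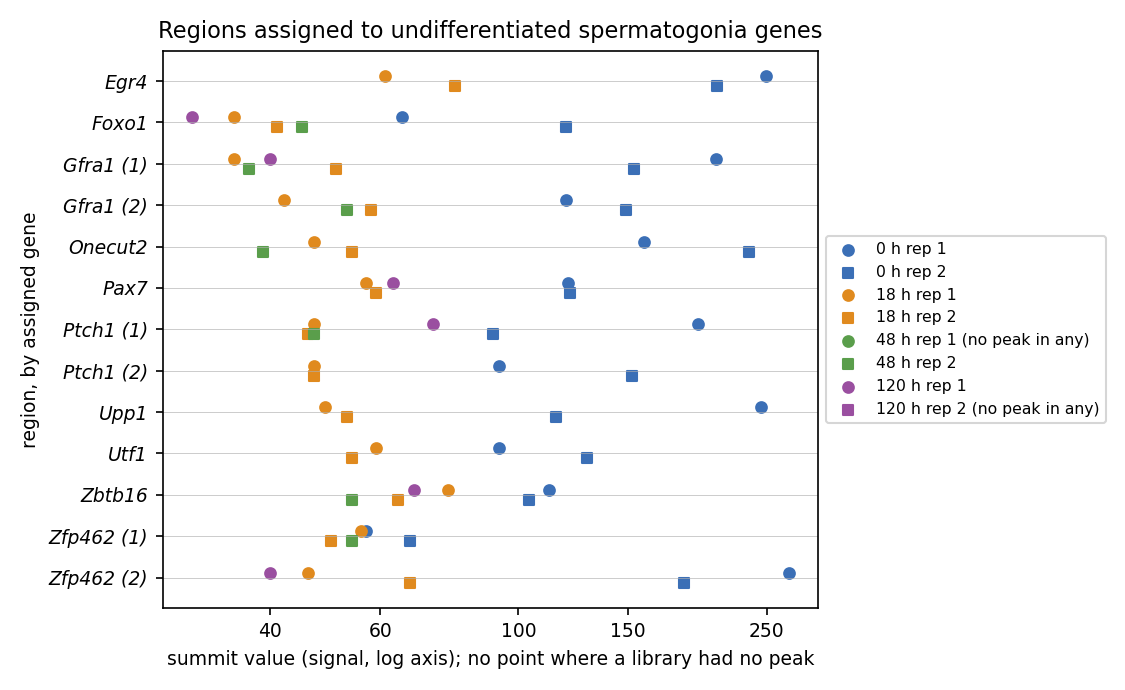
Summit values (log axis, signal units) of the 13 regions assigned to genes of undifferentiated spermatogonia, 1 row for each region, with circles for replicate 1 and squares for replicate 2 of each timepoint. No point is drawn where a library had no peak, and 48 h replicate 1 and 120 h replicate 2 had none in any of the 13.

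None of the 17 genes of differentiating spermatogonia with a called region had a member, against 11.3% of all genes, and none of their 54 called regions was a member, against 4.85% of all regions with a gene. This count of 0 rests on the 18 h libraries, since 2 of these genes had a region that met the rule without 18 h replicate 1 and 3 without 18 h replicate 2. The list includes Kit and Stra8, which RA induces in spermatogonia. Of the RA pathway genes, 3 of 28 had a member (10.7%), a share near that of all genes. Rxrg, the gene of the RAR partner RXR gamma, had a member at its start with 66 and 130 before RA, then 34 and 44 at 18 h, with later peaks of 60 (48 h replicate 2) and 48 (120 h replicate 1). Rdh11, a retinal reductase gene, had 122 and 159 before RA, then 60 and 56 at 18 h, with a later peak of 56 in 48 h replicate 2. Ncoa2, a coactivator gene of nuclear receptors, had 112 and 100 before RA, then 44 and 41 at 18 h and no later peak. All 3 were called lower at 18 h, beside 92.6% of all regions, with log2 changes between -1.32 and -1.26, close to the median of all regions.

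Genes of GDNF, FGF and PI3K signalling had 6 members in 4 of 35 genes (11.4%), and 6 of their 134 called regions were members (4.48%), both near the background of 11.3% of genes and 4.85% of regions. All 6 were called lower at 18 h, beside 92.6% of all regions. Pik3cd, a catalytic subunit gene of PI3K, had a member at its start with 122 and 150 before RA. At 18 h it had 70 and 75, and it had no later peak. Another member in an intron of Pik3cd had 338 and 187 before RA, then 58 and 51 at 18 h. Its later peaks, 63 (48 h replicate 2) and 65 (120 h replicate 1), lay above both 18 h values. The start region kept more of its height, with a log2 change of -0.9 against -2.21.

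Genes of WNT, TGF beta and BMP signalling had members in 9 of 42 (21.4%, against 11.3% of all genes). Per region the share was near the background, with 9 members in 177 called regions (5.08%), against 4.85% of all regions with a gene. Of these 9 members 8 were called lower at 18 h, beside 92.6% of all regions. Axin2, a feedback inhibitor gene of WNT signalling, had 137 and 148 before RA, then 66 and 79 at 18 h. Lef1, a transcription factor gene of the same pathway, had 155 and 244 and then 52 and 51. Bmp7, a ligand gene, had 263 and 230 before RA, then 58 and 89 at 18 h, and the member that the authors assigned to the WNT receptor gene Fzd3, at the start of Fbxo16, had 181 and 157 and then 90 and 81. Of these 4, Lef1 had the largest fall, a log2 change of -1.92 ± 0.32 (limma, adjusted p = 5.53e-08). Each of the 4 still had a peak in 48 h replicate 2, and all but Bmp7 had one in 120 h replicate 1. The later peaks of Lef1, 54 and 58, lay above both its 18 h values.

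In the piRNA pathway, 3 of 20 genes had a member (15.0%, against 11.3% of all genes), and that at the start of Piwil4, a PIWI protein gene of fetal germ cells, had 170 and 103 before RA, then 33 and 54 at 18 h, with a later peak of 36 in 120 h replicate 1. The region between Dnmt3l, a cofactor gene of DNA methylation, and Icosl had 184 and 199 and then 63 and 80. It had later peaks of 59 (48 h replicate 2) and 41 (120 h replicate 1). Of the meiotic prophase genes 14.3% (4 of 28) had a member (Msh5, Mlh3, Prdm9 and Syce3), of the chromatin and DNA methylation enzymes 5 of 43 and of the cell cycle genes 3 of 30. The highest 18 h values among them, 111 in each library, were in a region assigned to Kdm6b, an H3K27 demethylase gene, and to 3 neighbours, with 181 and 176 at 0 h and later peaks of 101 (48 h replicate 2) and 86 (120 h replicate 1). Beside Ccnd1, the gene of cyclin D1, the values were 153 and 165 before RA, then 73 and 99 at 18 h, with a later peak of 125 in 120 h replicate 1. That last value lay above both 18 h values.

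Among the 39 Hox genes, Hoxc4 alone had a member (2.56%, against 11.3% of all genes). Of their called regions 1.3% were members, against 4.85% of all regions with a gene. This member lay at the start of Hoxc4, with 71 and 80 before RA, then 44 and 38 at 18 h. Its later peaks, 48 (48 h replicate 2) and 61 (120 h replicate 1), lay above both 18 h values. Of 21 somatic marker genes with a called region, 2 had a member (9.52%, near the share of all genes). The region assigned to the macrophage gene Cd68 lay at the start of Sox15, with 160 and 124 and then 64 and 84. It had later peaks of 68 (48 h replicate 1) and 92 (120 h replicate 1). The region of the endothelial receptor gene Kdr had 101 and 122 and then 47 and 59. Its later peak was 32 (48 h replicate 2).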

How the data were processed

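ATAC-seq was performed by the authors on sorted PIWIL2-eGFP germ cells, with 2 libraries at each of 4 timepoints. The labels give 100000 cells per replicate and the methods 50000 per sample. Per the study's methods and the submitters' processing notes, the authors aligned paired reads to mm10 with BWA 0.7.12 in mem mode, removed duplicates, reduced each library to an equal number of tags, extended alignments to 200 bp in 32-nt bins and called peaks in each library with MACS2 2.1.0 at a p-value of 1e-07 without a control, removing ENCODE blacklist peaks. No adapter-site shift is described. The deposited table of 328733 peaks gives the signal, as tag coverage, at each summit and its mean over the peak, the number of CpG islands and the genes within 10 kb. The deposited merged list, signal tracks and track links were not used. Counts of reads in the regions are not analysed here, and a peak's depth is known only as its signal, and the authors' count-based comparison was not repeated.

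Peaks were merged, called and annotated with Python 3.11.15, pandas 2.3.3 and numpy 2.4.6. Starts in the table count from 0 and were raised by 1. Sequence was read with pysam 0.24.0 from RefSeq GRCm38.p6, whose chromosomes held every peak, and exons from GENCODE vM21. The place, genes at the start, GC content and motifs of a region are those of its highest peak. The log2 of the highest summit value was compared between 18 h and 0 h with limma 3.58.1 in R 4.3.3 (lmFit, eBayes, no block), in the 23578 regions with a peak in those 4 libraries. P-values were adjusted by Benjamini-Hochberg over all of them, with a threshold of 0.05. The libraries of 48 and 120 h were not in this fit. The scripts were tested on simulated data.

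The members and lists were chosen with earlier results of these data known. Regions were named by a rule: the 10 members with the highest lower 18 h value and no later peak, 6 for the largest rise, 6 for the largest fall, up to 4 for each gene list and up to 4 with a RAR/RXR repeat by 18 h value, and the 5 genes with the most members. A region that this rule named is not reported here. Alternatives were other overlaps, windows, peak limits, scalings, a replicate block and each library left out. The joint omission of 48 h replicate 1 and 120 h replicate 2, the omissions for the undifferentiated list, and the repeat measures were added after the data were seen.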

Additional observations from a re-analysis of the deposited data

How the results depend on the processing

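Number, later peaks, place, genes and GC content of the regions moved as follows. An overlap of 50% of both peaks gave 9.38% within 1000 bp of a TSS and a median GC of 51.2%, and windows of 100 bp around the summits 11.5% at a TSS. A peak in either library as a call left 100% with no later peak by construction, 9.99% at a TSS and 52.5% GC. Summit values of at least 50 gave 16.2% with no later peak, 12.9% at a TSS and 51.2% GC. With the 24643 highest peaks of each library, 1267 regions and 1045 genes met the rule, 21.2% with no later peak and 11.9% at a TSS. A TSS limit of 3000 bp gave 15%, genes that contain the peak or start within 1000 bp numbered 1428, and the whole merged region had 50.4% GC. Within 75 bp of the summit, 0.241% of the members held a RAR/RXR repeat, 14.2% a GC box and 16.7% a DMRT core, against 0.264%, 20.2% and 12.9% of all called regions.

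Leaving out each library in turn gave 1305 to 8207 regions, 984 to 5445 genes, 18.2% to 55.1% with no later peak, 8.9% to 12.9% at a TSS, a median GC of 51.2% to 52.5% and 6 to 17 genes of the undifferentiated list. The lowest number of regions was without 48 h replicate 1 and the highest without 18 h replicate 1. Without 48 h replicate 1 and 120 h replicate 2 together, 749 regions, 577 genes and 4 genes of that list were left. The causes of these moves were not tested.

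For the change from 0 to 18 h, centring turned the members' median from -1.169 to 0.116, with 132 regions lower and 682 higher, 40 and 178 of them members, and 17.5% of members with no overlap. Quantile normalization gave -0.056, 41 lower and 126 higher (13 and 7 members) and 28.3%. The mean signal gave -0.871 and 92.5%. Above the median height, with 11789 regions tested, 11468 were lower and 26 higher, 194 of the former members, with -1.46 and 99%. Leaving out a 0 or 18 h library, where the lone sample is assumed to vary like the others, gave 13478 to 21066 lower and 24 to 47 higher, 1900 to 2656 members lower, medians of -1.259 to -1.078 and 95.1% to 97.3%. The lowest counts were without 0 h replicate 2. An intensity trend kept all counts within 1.5 times.

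The labels give both times the numbers 1 and 2 with no shared mouse. Deviations of same-numbered libraries correlated across regions with r = 0.176. With a replicate block 22518 regions were lower and 67 higher, 3038 and 1 of them members, and with the block and centring 512 and 1575, 123 and 418 of them members. Heights where no peak was called and reads per region are not known here, which limits every statement on later timepoints.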
